A study of Mus musculus with 8 samples.

Results

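Vitamin C (ascorbate) is made in the mouse from glucose by way of glucuronate, and Gulo, L-gulonolactone oxidase, carries out the last step of that route, which is known chiefly from liver. Rgn, regucalcin, is the lactonase of the step before it, and Slc23a1 and Slc23a2 are the sodium-dependent transporters that bring ascorbate into cells. Ascorbate keeps the iron of a family of oxygenases reduced. Among them are the lysyl hydroxylases Plod1, Plod2 and Plod3 and the catalytic subunits P4ha1 and P4ha2 of collagen prolyl 4-hydroxylase, which modify procollagen in the endoplasmic reticulum before it is secreted.

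These 9 genes were followed by gene symbol in the read counts of 53801 genes from sorted Paneth cells, the granule-filled secretory cells at the base of small intestinal crypts. They were chosen on these same data: Gulo and Plod2 had been singled out by their difference between the genotypes compared here, and the other 7 genes stand beside them in the pathway. The values of the members between genotypes are therefore given as a description without a p-value.

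The cells came from 4 β-catGOF; Mll1+/- mice (controls) and 4 β-catGOF; Mll1-/- mice (knockouts). β-catGOF, shared by all 8 mice, is a β-catenin allele that loses exon 3 under Cre and keeps Wnt signalling active, so that no group of mice without this allele is compared here. Cre was Lgr5-EGFP-IRES-CreERT2, expressed from the locus of the stem cell gene Lgr5 and switched on by tamoxifen. The sort did not select for recombined cells, and the counts do not give their share. Controls carried 1 conditional copy of Mll1, the histone methyltransferase whose mouse gene is Kmt2a. Tamoxifen was given as 1 mg on 3 consecutive days, and tissue was taken 10 d after induction. The methods name the littermates of the sort by their Mll1 alleles alone, and the design text of the series adds the β-catenin allele. Mutagenesis was induced at an age of 4 to 6 wk, in mice of both sexes. Each library was made with Smart-seq2, which amplifies full-length cDNA, from 300 viable EpCAM+ Cd24+ cells. The cells were also stained for CD45, and the methods do not say how that stain was used in the sort.

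Library totals lay between 13037832 and 14380240 counts, and the Paneth cell markers held the largest sums of the cell type lists in every library (243000 to 750000 normalized CPM, that is read counts per 1e6 of the TMM-scaled library size). All 8 of those markers were tested, and none was past the cutoffs or had an unadjusted p under 0.05 in edgeR. Knockout 3 stood apart, with 19662 genes detected against 22623 to 26074 in the others and the highest sum of Paneth cell markers. Kmt2a did not separate the genotypes: control counts were 268 to 719 and knockout counts 328 to 523 (log2 fold change −0.06 ± 0.24, SE; edgeR adjusted p = 0.995). Counts of a whole gene do not resolve a deleted exon, so they do not check the labels, and the staining of Mll1 protein on tissue sections in the study was not used here. The label numbers form 2 runs. Library set 1 is the run of controls 1 and 2 with knockouts 1 and 2, and set 2 is the run of the other 4 libraries. Counts of 4 Y-linked genes were 881 to 1375 in control 3 and knockouts 1 and 2, 148 in knockout 3 and 6 to 22 in the remaining libraries. Xist counts were 1 to 6 in control 3 and knockouts 1 and 2, 1037 in knockout 3 and 1055 to 2697 in the others, so that knockout 3 held both kinds of transcript.

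The data turn on Gulo and Plod2, and stretches of coding sequence are printed so that both can be located. They come from the GENCODE M21 transcripts of GRCm38, 5′ to 3′ along the mRNA, with capitals for the start codon in the first pair. Gulo lies on the minus strand of chromosome 14 (chr14:65986786-66009207), and its start codon is the end of exon 1 (chr14:66009045-66009047), joined here to exon 2 (chr14:66008039-66008140). Plod2 lies on the plus strand of chromosome 9 (chr9:92542223-92608428), 47.7 Mb from Kmt2a on the same chromosome, and the coding part of its exon 1 is chr9:92542460-92542568. The last sequence, wholly in capitals, is the 63-base exon 14 of Plod2 (chr9:92601985-92602047), which is present in an annotated transcript and skipped in another. The counts are per gene and do not say which of the Plod2 splice forms was present.
Gulo, start codon and coding exon 2: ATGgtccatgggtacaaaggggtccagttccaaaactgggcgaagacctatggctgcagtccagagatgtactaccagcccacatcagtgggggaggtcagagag
Plod2, coding exon 1: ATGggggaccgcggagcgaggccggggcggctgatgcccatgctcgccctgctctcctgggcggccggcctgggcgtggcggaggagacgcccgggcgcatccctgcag
Plod2, alternative exon 14: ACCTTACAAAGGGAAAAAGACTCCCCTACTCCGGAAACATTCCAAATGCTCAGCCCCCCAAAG

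The paralogs share short identical runs, which bear on whether reads are assigned to 1 gene. The longest identical run between a Plod2 transcript and a Plod1 transcript was 15 bases, that between Plod2 and Plod3 20 bases, and that between Plod1 and Plod3 24 bases. P4ha1 and P4ha2 shared at most 16 bases in a row, and Slc23a1 and Slc23a2 at most 20. Overlap with other genes was also small for the members. Of the exon bases of Plod2, 6.4% lie opposite Gm38391, which had 1 count in all 8 libraries together. Of those of Plod3, 11.7% lie opposite Znhit1, which had 78 to 199 counts per library, and the strand setting of the counting is not given in the sources used here.

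Gulo was close to absent in controls and present in every knockout. Its counts were 1, 0, 0 and 5 in controls 1 to 4 and 231, 205, 41 and 44 in knockouts 1 to 4. In normalized CPM the controls held 0.0629, 0, 0 and 0.396, and the knockouts held 13.8, 11.8, 4.83 and 2.68. The lowest knockout was thus above the highest control, and the group means were 0.115 ± 0.19 and 8.27 ± 5.35 (SD, n = 4). The fitted log2 fold change, knockout over control, was 6.07 ± 0.85 (SE). Because the controls held only 6 counts in all, the ratio of the pooled counts was also formed: it was 76.8, with an exact 95% interval for counting error of 35 to 210.1. Control 4 carried 5 of those counts. Without it the ratio was 349.1 (62.4 to 13810, from 1 control count), and without any other single library it was 58.3 to 97.4. With bulk samples, more cells that transcribe a gene and more RNA per cell cannot be told apart, here or in any later value.

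The 4 knockouts were not alike for Gulo. Knockouts 1 and 2 (library set 1) averaged 12.8 normalized CPM, and knockouts 3 and 4 (set 2) averaged 3.75. Controls averaged 0.0314 in set 1 and 0.198 in set 2, so that the knockouts were higher within both sets. Library set and sex cannot be told apart among the knockouts, since knockouts 1 and 2 are also those with high Y-linked counts. With Y-linked expression as a covariate the fitted log2 fold change of Gulo was 5.22 ± 0.89, and with library set as a block it was 5.88 ± 0.82.

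Liver is the classic site of Gulo expression in the mouse, and hepatocyte markers were therefore read beside it. Of the 7 hepatocyte markers 3 passed the low-count filter, and none was past the cutoffs or had an unadjusted p under 0.05 in edgeR. Their summed level was 11.9 to 13.4 normalized CPM in controls and 8.48 to 21.9 in knockouts. Albumin (Alb) stood at 0.251 to 0.72 in controls and 0 to 0.864 in knockouts, and the fibrinogen chain genes Fgb and Fgg had at most 1 count in any library. Cyp2e1, a cytochrome P450, was 12.9 in knockout 1 and 12 in knockout 2 and 0.707 to 7.42 in the other libraries. The tested hepatocyte markers went both ways, with log2 fold changes of 0.87 ± 0.71 for Cyp2e1, 0.28 ± 0.5 for Apoh and −0.41 ± 0.42 for Ttr (SE). The leukocyte gene Ptprc (CD45) was 11.0 and 9.04 normalized CPM in knockouts 1 and 2, 12.6 and 8.44 in controls 1 and 2 and 1.3 to 3.87 in set 2. The summed immune markers, which include Ptprc, did not show that split. They were 226 and 178 in knockouts 1 and 2 and 144 and 357 in controls 1 and 2. In set 2 they ran from 172 to 628, the highest being knockout 3. The part of these genes in the Gulo values was not tested.

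Rgn, the enzyme just upstream of Gulo, was measured in every library. Counts were 42, 25, 7 and 69 in controls and 31, 58, 19 and 23 in knockouts. The groups overlapped (2.68 ± 2.03 against 2.21 ± 0.83 normalized CPM, SD, n = 4; log2 fold change −0.28 ± 0.56, SE). Its control range alone ran from 0.63 to 5.46 normalized CPM. Rgn lies on the X chromosome (chrX:20549787-20562089).

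The ascorbate transporters gave overlapping groups as well. Slc23a2, the more widely expressed of the pair (chr2:132052496-132145108), had 34, 38, 64 and 49 counts in controls and 53, 54, 22 and 70 in knockouts. Its means were 3.7 ± 1.55 and 3.28 ± 0.701 normalized CPM (log2 fold change −0.16 ± 0.36, SE). Slc23a1, the transporter of absorptive epithelia, on chromosome 18, had 5, 5, 3 and 4 counts in controls and 9, 2, 3 and 2 in knockouts. It did not pass the low-count filter, and at this depth a difference was not detectable (log2 fold change −0.22 ± 1.07, SE, in a fit of all genes with a count).

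**Figure D1:**
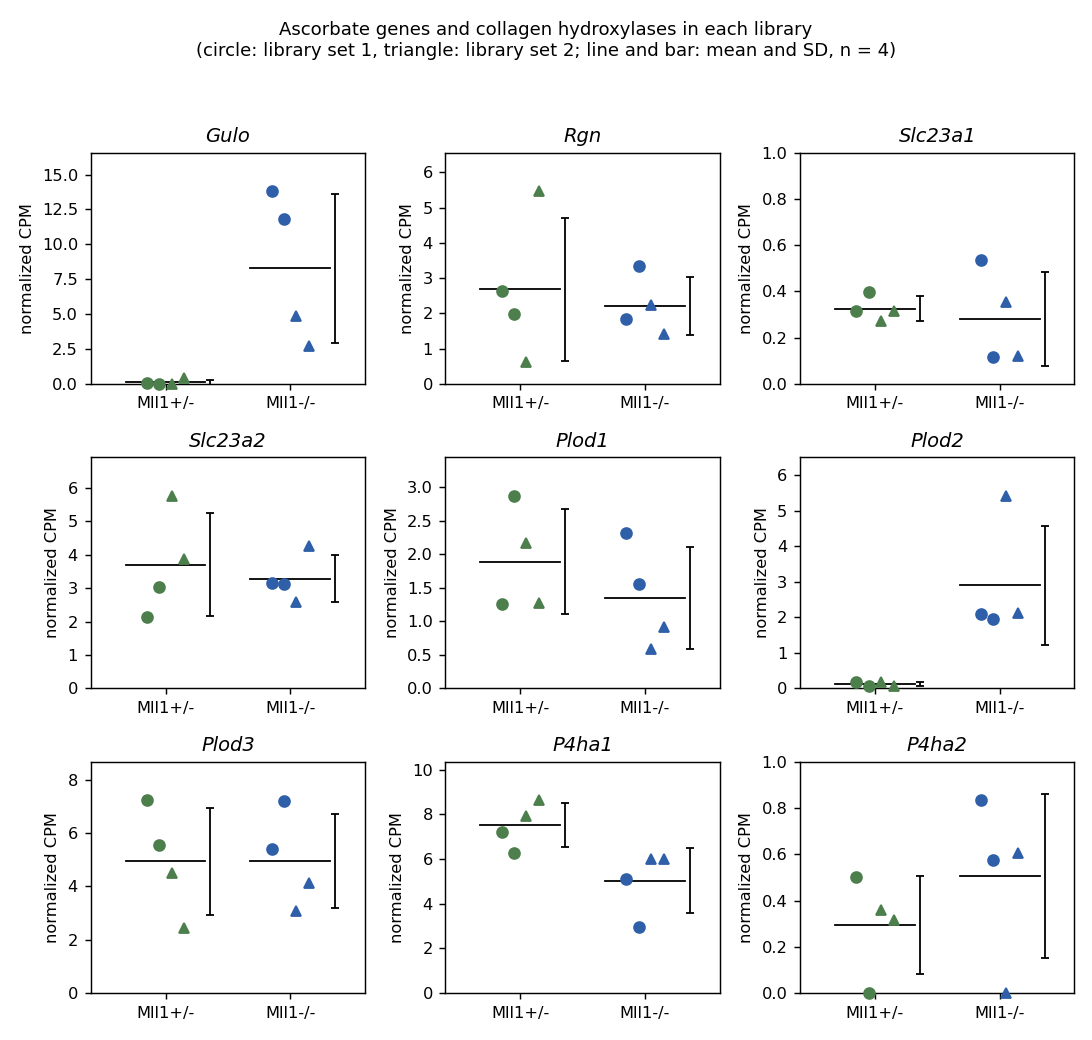
Normalized CPM of the 9 genes in each of the 8 libraries, 1 panel per gene with its own linear axis from 0, controls (Mll1+/-) at left and knockouts (Mll1-/-) at right. Circles are library set 1, triangles set 2, lines the group mean and bars the SD (n = 4). All knockouts lie above all controls for Gulo and Plod2, all knockouts below all controls for P4ha1 on this TMM-scaled axis (not per raw library total), and the groups overlap for the other 6 genes.

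Plod2, the lysyl hydroxylase known for modifying the telopeptides of collagen chains, was the other member that separated upward. Its counts were 3, 1, 2 and 1 in controls 1 to 4 and 35, 34, 46 and 35 in knockouts 1 to 4. The normalized CPM were 0.189, 0.0796, 0.18 and 0.0792 in controls and 2.09, 1.96, 5.42 and 2.13 in knockouts. Knockouts 1, 2 and 4 lay close together (2.06 ± 0.0889, SD, n = 3), and knockout 3 stood above them. Its 46 counts came from the library with the lowest TMM factor (0.632 against 0.821 to 1.337 in the others), which raises its normalized values. Over all 4 knockouts the mean was 2.9 ± 1.68 against 0.132 ± 0.0607 in controls (SD, n = 4), and the log2 fold change was 4.33 ± 0.61 (SE). The ratio of the pooled counts was 18.9, with an exact 95% interval for counting error of 8.97 to 47.9. Without knockout 3 the log2 fold change was 3.86 ± 0.55.

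Plod2 differed from Gulo in how it varied among the knockouts. In library set 1 its means were 0.134 in controls and 2.02 in knockouts, and in set 2 they were 0.13 and 3.77 normalized CPM. The libraries with the most Gulo, knockouts 1 and 2, thus held no more Plod2 than knockout 4. With Y-linked expression as a covariate the log2 fold change of Plod2 was 4.38 ± 0.68.

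Plod1 and Plod3, the paralogs of Plod2, overlapped between genotypes. Plod3, which carries glycosyltransferase activity beside its hydroxylase activity (chr5:136987019-136996648), had 115, 70, 50 and 31 counts in controls and 91, 125, 26 and 68 in knockouts. Its means were 4.94 ± 2.0 and 4.96 ± 1.78 normalized CPM (log2 fold change 0.01 ± 0.38, SE). Plod1, which acts on the helical part of collagen chains (chr4:147909753-147936767), had 20, 36, 24 and 16 counts in controls and 39, 27, 5 and 15 in knockouts. Its means were 1.89 ± 0.777 and 1.35 ± 0.766 (log2 fold change −0.46 ± 0.51, SE).

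Set per kilobase of exon, so that genes can be compared, Plod2 made up a different share of the lysyl hydroxylase RNA in the 2 genotypes. Its share of the summed level of Plod1, Plod2 and Plod3 was 1.92%, 0.883%, 2.48% and 1.97% in controls and 20.0%, 16.6%, 56.8% and 27.3% in knockouts. Plod3 held the largest share in every library but knockout 3 (72.9% to 87.9% in controls, 38.3% to 72.9% in knockouts). The sum of the 3 genes was 1.4 ± 0.477 CPM per kb in controls and 1.83 ± 0.31 in knockouts (SD, n = 4), and these groups overlapped.

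**Figure D2:**
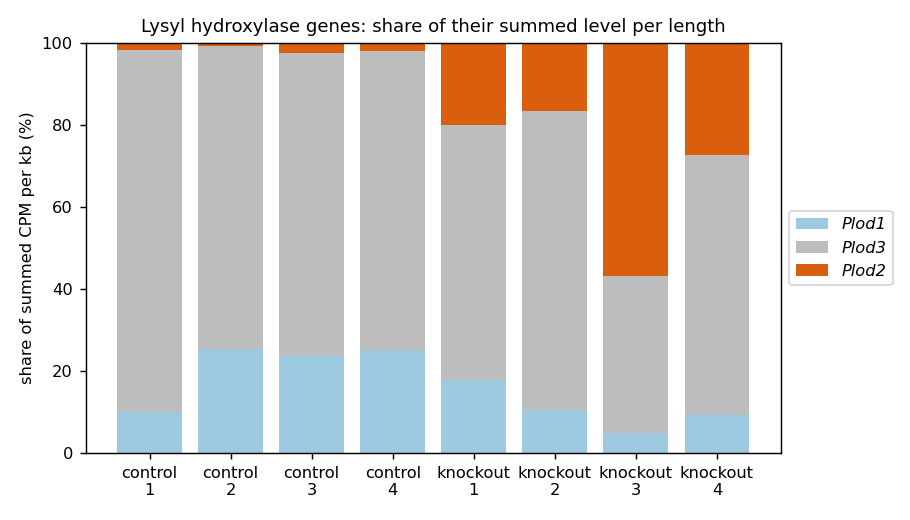
Share (%) of Plod1, Plod2 and Plod3 in their summed normalized CPM per kb of exon, 1 stacked bar per library. Plod2 takes 0.883% to 2.48% in controls and 16.6% to 56.8% in knockouts, the highest value being knockout 3.

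Of the prolyl hydroxylase subunits P4ha1 was lower in knockouts than in controls on the normalized scale, and P4ha2 had too few counts to be placed. P4ha1 (chr10:59323296-59373304) had 115, 79, 88 and 109 counts in controls and 86, 51, 51 and 99 in knockouts. In normalized CPM the controls held 7.23, 6.29, 7.92 and 8.63 and the knockouts 5.12, 2.94, 6.01 and 6.02. The groups did not overlap on this scale, with the lowest control and the highest knockouts close, and the means were 7.52 ± 0.999 and 5.02 ± 1.45 (SD, n = 4). Per 1e6 raw counts, without TMM scaling, controls ran from 5.73 to 8.28 and knockouts from 3.79 to 7.3, so that the groups overlapped. The log2 fold change was −0.59 ± 0.29 (SE), and P4ha1 was not past the cutoffs. P4ha2 (chr11:54100095-54131665) had 8, 0, 4 and 4 counts in controls and 14, 10, 0 and 10 in knockouts. It did not pass the low-count filter, the groups overlapped, and the ratio of the pooled counts was 1.88 with an exact 95% interval for counting error of 1.01 to 3.64. P4ha1 made up 97.6% ± 1.82 of the summed level per length of P4ha1 and P4ha2 in controls and 93.2% ± 5.05 in knockouts (SD, n = 4).

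**Figure D3:**
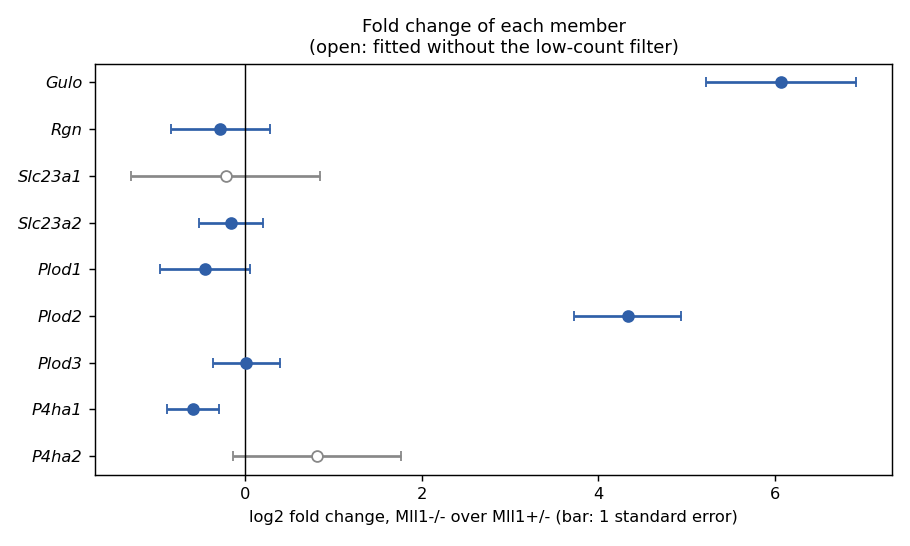
Fitted log2 fold change of each of the 9 genes, knockout over control, with 1 standard error. Filled points are genes that passed the low-count filter, and open points are Slc23a1 and P4ha2, fitted without it. Gulo (6.07) and Plod2 (4.33) lie apart from the other 7, which run from −0.59 to 0.81.

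Across all genes, 25 of 13439 tested were past both cutoffs (0.05 for the edgeR adjusted p and 0.5 for the size of the log2 fold change), which is 0.186%, and 21 of them were higher in knockouts (0.156%). Of the 9 members 7 were tested, and Gulo and Plod2 were past both cutoffs, both higher. Groups that did not overlap were found for 4.52% of all genes tested and, on the same TMM-scaled values, for Gulo, Plod2 and P4ha1 among the members. Since the choice of the members used this contrast, nothing is read from these counts. Neither Gulo nor Plod2 was past the cutoffs with Y-linked expression as a covariate or without control 1, 2 or 3. Without control 4 only Gulo was, and without knockout 2 only Plod2 was. Their log2 fold changes in these fits stayed between 4.17 and 7.94, the highest being Gulo without control 4, the library with 5 of its 6 control counts.

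**Figure D4:**
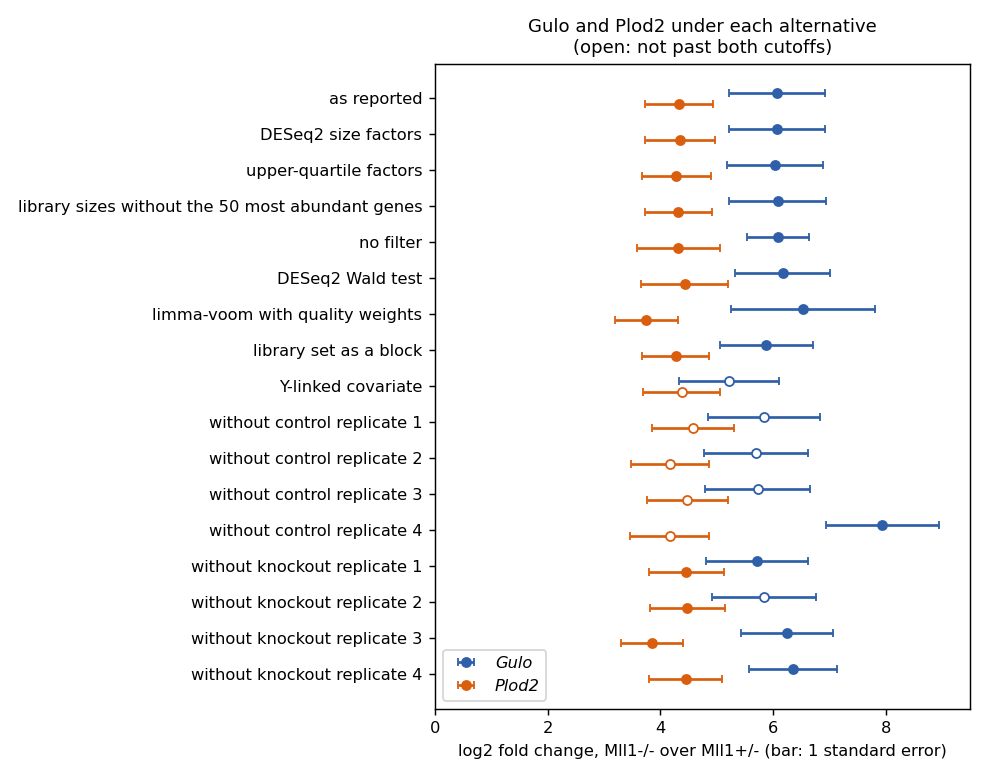
Log2 fold change of Gulo (blue) and Plod2 (orange), knockout over control, with 1 standard error, as reported and under each alternative, including each library left out in turn. Filled points were past both cutoffs. Gulo stays between 5.22 and 7.94 and Plod2 between 3.75 and 4.58, while the call is lost in 5 of the 16 alternatives for each gene.

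Ranked by level per length, the members took different places in the 2 genotypes. In controls the order was P4ha1 (1.83 CPM per kb), Rgn (1.67), Plod3 (1.09), Slc23a2 (0.465), Plod1 (0.279), Slc23a1 (0.1), Gulo (0.0507), P4ha2 (0.0473) and Plod2 (0.0245). Along that order only Plod1 and Slc23a1 had ranges that did not overlap. In knockouts the order was Gulo (3.65), Rgn (1.37), P4ha1 (1.22), Plod3 (1.1), Plod2 (0.537), Slc23a2 (0.412), Plod1 (0.199), Slc23a1 (0.087) and P4ha2 (0.0809), and every pair of neighbours overlapped. Among all genes tested, the mean level per length of Gulo stood at percentile 73.5 in knockouts.

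The rest of the ascorbate pathway was read from lists of what the genes do. Over the glucuronate route, ascorbate recycling and uptake, the other collagen-modifying proteins and the other ascorbate-linked oxygenases together, 44 of 69 genes were tested and 0 were past the cutoffs in edgeR, DESeq2 or limma-voom. These tools had 25, 138 and 95 of all 13439 genes past the cutoffs, a share at which 44 genes hold few or none. At an unadjusted p under 0.05 edgeR had 1 higher and 2 lower of these 44, beside 584 higher and 340 lower of all 13439 genes tested, and the median log2 fold change was −0.04 against 0.01 over all genes tested. The counts for the separate lists follow, and genes other than the most abundant of a list were named after their values were seen.

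In the glucuronate list, which holds enzymes that form UDP-glucuronate, glucuronate and gulonate and enzymes that carry these away into other breakdown routes, 8 of 9 genes were tested and none was past the cutoffs (median log2 fold change 0.19). Akr1a1, the aldehyde reductase that forms gulonate and the most abundant of the list per length, was 96 ± 4.68 normalized CPM in controls and 111 ± 11.3 in knockouts (log2 fold change 0.21 ± 0.15, SE; edgeR adjusted p = 0.895). Ugp2, which makes UDP-glucose, had a log2 fold change of 0.27 ± 0.2, and Dcxr, xylulose reductase, one of 0.17 ± 0.3. At an unadjusted p under 0.05 stood Ugdh, which makes UDP-glucuronate, and Cryl1, gulonate dehydrogenase, which consumes gulonate. Ugdh was 12.2 ± 1.11 in controls and 19.4 ± 4.95 in knockouts (0.67 ± 0.22, SE; edgeR adjusted p = 0.468), with ranges of 11.0 to 13.5 and 13.4 to 25.0 that overlapped slightly. Cryl1 had a log2 fold change of −0.99 ± 0.41 (edgeR adjusted p = 0.664).

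In ascorbate recycling and the uptake of dehydroascorbate, its oxidized form, 12 of 15 genes were tested and none was past the cutoffs (median log2 fold change −0.15). Gsto1, a glutathione transferase with dehydroascorbate reductase activity, was 76.7 ± 3.65 normalized CPM in controls and 65.3 ± 23.4 in knockouts (−0.24 ± 0.22, SE). The cytochromes Cyb5a and Cyb5b had log2 fold changes of 0.04 ± 0.18 and 0.08 ± 0.15. Glutaredoxin (Glrx) had the one unadjusted p under 0.05: it ranged from 15.3 to 29.1 in controls and from 13 to 16.1 in knockouts (−0.73 ± 0.22, SE; edgeR adjusted p = 0.411).

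Of the other collagen-modifying enzymes and chaperones 10 of 26 were tested, none was past the cutoffs or had an unadjusted p under 0.05 in edgeR, and the median log2 fold change was 0.0. P4hb, protein disulfide isomerase and the β subunit of prolyl 4-hydroxylase, was by far the most abundant per length, at 548 ± 82.8 normalized CPM in controls and 565 ± 198 in knockouts (0.04 ± 0.25, SE). Mia3, a cargo receptor for procollagen export, had a log2 fold change of −0.05 ± 0.19, and Ppib, a cyclophilin that shares 25.0% of its exon bases with another gene, one of 0.25 ± 0.27. The collagen chaperone Serpinh1 had 14 counts in controls and 9 in knockouts over all libraries. The lysyl oxidase gene Lox had 0 and 3, and its relatives Loxl1 to Loxl4 had at most 4 counts in either genotype.

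Of the other ascorbate-linked oxygenases 14 of 19 were tested, with none past the cutoffs or at an unadjusted p under 0.05 in edgeR (median log2 fold change −0.04). The most abundant per length were Phyh, phytanoyl-CoA hydroxylase (−0.13 ± 0.34, SE), Hpd, of tyrosine breakdown (0.04 ± 0.34), and Asph, aspartate β-hydroxylase (−0.14 ± 0.31), which shares 14.3% of its exon bases with another gene. The hypoxia-inducible genes, which rise when prolyl hydroxylases of the Egln group are inactive and of which Plod2 and P4ha1 are known members, had none of 17 tested past the cutoffs in edgeR, DESeq2 or limma-voom and 1 lower at an unadjusted p under 0.05, Car9 (−1.35 ± 0.57, SE; edgeR adjusted p = 0.67). Their median log2 fold change was −0.09 (6 positive and 11 negative), with Ldha at −0.09 ± 0.15, Hk2 at −0.4 ± 0.27 and Vegfa at −0.1 ± 0.21. The highest was Egln3 at 1.37 ± 0.76 (SE), from 30 counts in controls and 100 in knockouts. The part of hypoxia in the values of Plod2 and P4ha1 was not tested.

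**Figure D5:**
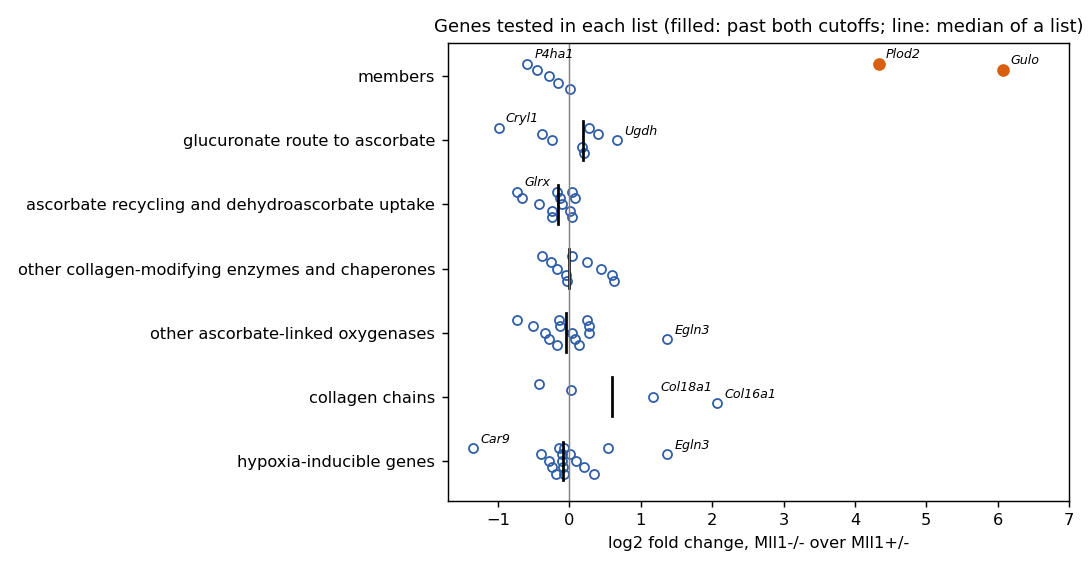
Log2 fold change, knockout over control, of every tested gene of the members (top row) and of 6 lists, 1 point per gene, with the median of each list as a line. Filled points, past both cutoffs, are Gulo and Plod2, and the medians of the lists lie between −0.15 and 0.6.

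Most of the listed collagen chains, substrates of the hydroxylases, did not pass the low-count filter. Of 24 collagen chains 4 were tested and none was past the cutoffs in edgeR (1 higher at an unadjusted p under 0.05; median log2 fold change 0.6). The fibrillar chains Col1a1, Col1a2 and Col3a1 had at most 10 counts in any library. Col16a1, a chain of a fibril-associated collagen, was 0.09 to 1.27 normalized CPM in controls and 2.62 to 4.15 in knockouts (log2 fold change 2.07 ± 0.57, SE; edgeR adjusted p = 0.35). It was past the cutoffs in DESeq2 and not in limma-voom. Col18a1, of basement membranes, had a log2 fold change of 1.17 ± 0.6 (edgeR adjusted p = 0.788), and Col15a1 one of −0.42 ± 0.68. Plod2 is abundant in fibroblasts, and stromal markers were therefore read beside it. None of 10 passed the low-count filter, and their summed level was 1.8 to 2.38 normalized CPM in controls and 1.18 to 1.89 in knockouts. Single stromal markers went both ways, such as Pdgfrb (23 counts in controls and 1 in knockouts) and Dcn (5 and 15). The part of stromal cells in the Plod2 values was not tested. Enterocyte markers summed to 143 to 326 in controls and 89.7 to 236 in knockouts, goblet cell markers to 1790 to 4300 and 1670 to 4060, stem cell markers to 573 to 1270 and 211 to 834, and endothelial markers to 3.56 to 6.48 and 4.26 to 6.36. Immune markers, mostly Lyz2, summed to 144 to 472 and 172 to 628. None of these markers was past the cutoffs in edgeR, and at an unadjusted p under 0.05 there were 2 enterocyte, 2 goblet cell and 2 stem cell markers lower and 1 stem cell marker higher, of 5, 7 and 5 tested. Over all 13439 genes 340 were lower and 584 higher at that threshold. DESeq2 had 1 enterocyte marker past the cutoffs, and limma-voom 1 enterocyte and 1 stem cell marker, beside 138 and 95 of all 13439 genes in these tools.

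The genes most like Gulo over the 8 libraries, by Pearson correlation of log2 normalized CPM with a prior of 1, were Tcf4 (r = 0.98), Spred1 (0.978), Ptn (0.967), Tcp1 (0.967) and Tubb6 (0.961). Of these Ptn, the growth factor pleiotrophin, ranged from 6.35 to 9.9 normalized CPM in controls and from 28.2 to 51.2 in knockouts, and Tubb6, a β-tubulin, from 0.0629 to 0.871 and from 3.18 to 5.9. Among the 5 genes most like Plod2 were Capza1 (0.981), Tex15 (0.981), Sema3f (0.963) and Psmd1 (0.963). Tex15, known from meiosis, ranged from 0.875 to 1.63 in controls and from 3.59 to 11.3 in knockouts. Gulo and Plod2 correlated with each other at 0.809, which placed Plod2 at rank 165 on the list of Gulo and Gulo at rank 298 on the list of Plod2. These correlations are descriptions over 8 libraries that share the separation of the genotypes, and they were picked as the highest among 13439 genes.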

How the data were processed

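The authors demultiplexed with bcl2fastq 2.19.1, aligned the reads to mm10 with GSNAP and counted uniquely mapped reads per gene of Ensembl release 92 with featureCounts 1.6.3. The deposited values are raw counts per gene and library, without normalization. Groups were taken from the genotype in the labels, and the study gives 4 independent mice per genotype. The titles of control 4 and knockout 4 carry 1 shared animal number, which was not used. Replicate numbers are names in accession order and pair no samples. The 92 spike-in rows, with at most 11 counts in a library, were left out.

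The members and gene lists were chosen with earlier results of these data known. Genes passing filterByExpr (minimum count 10, minimum total 15; 13439 genes) were fitted with edgeR 4.0.16 (TMM, robust quasi-likelihood test, genotype only, all 8 libraries, R 4.3.3) and adjusted by Benjamini-Hochberg over all of them. The common biological coefficient of variation was 0.376. The SE of a log2 fold change is its size over the square root of F. DESeq2 1.42.0 and limma 3.58.1 (voom with quality weights) were alternatives. The fit was also run on simulated data, with the same dispersion for every gene and smaller changes than those of Gulo and Plod2. That run therefore does not bear on Gulo and Plod2. Libraries were distinct: chi-square per degree of freedom was 12.13 or more in each pair. The lowest value was that of knockouts 1 and 2, and the next was 37.09 for controls 2 and 3. A count of 3 equals 0.173 to 0.353 normalized CPM, and intervals cover counting error only.

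By rule, the genes named are the members, list genes past both cutoffs, the 3 most abundant genes per length of each list, and the 5 genes most correlated with Gulo and with Plod2. Markers of other cell types, overlapping genes and a few further list genes are also named, the list genes after their values were seen. One gene under this rule is not reported here. Tmlhe, on the list of oxygenases, was not analysed here. Promoter and protein sequences were not used here.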

Additional observations from a re-analysis of the deposited data

Results flagged for a closer look

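Dixon's test at the 95% level was applied to the normalized CPM of each member in each genotype. It marked 2 of 18 groups. Chance marks about 1 in 20 for normally distributed values, a rate that need not hold for groups with counts near the floor. Control 4 was far above the other controls for Gulo, its gap to the next library being 0.841 of the range of the group. That control held 5 of the 6 Gulo counts in controls (0.396 normalized CPM). Knockout 3 was far above the other knockouts for Plod2, with a gap of 0.951 of the range (5.42 against 1.96 to 2.13 normalized CPM, from 46 against 34 to 35 counts). It is the library with the fewest genes detected (19662) and the lowest TMM factor (0.632), and the part of these in the Plod2 value was not tested.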

How the results depend on the processing

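The number of all genes past both cutoffs, 25, was 290 without the low-count filter, 13 with at least 10 counts required in every library, 138 with DESeq2, 95 with limma-voom and 10 with Y-linked expression as a covariate. It ran from 10 (without control 3) to 152 (without knockout 3) when 1 library was left out. The number of members past both cutoffs, 2, was 0 with the Y-linked covariate and 0 with at least 10 counts in every library, a filter that removes Gulo and Plod2 themselves since controls hold 0 to 5 counts of them. It ran from 0 (without control 1, 2 or 3) to 2 when 1 library was left out, and the cause was not tested. The number of genes past both cutoffs in the 4 lists of ascorbate and collagen-modifying enzymes combined was 0 under every alternative run. At the share of all genes called, lists of this size hold few or none, so nothing is read from that 0. Of 115 fold changes of members under alternatives, 113 moved by less than the spread between replicates, 2 moved by more and 0 changed sign from a called value. Both that moved kept their direction: Gulo at 7.94 without control 4 and Plod2 at 3.75 with limma-voom. P4ha1 stayed between −0.8 and −0.39, and the gap from its highest knockout to its lowest control, 0.264 normalized CPM, was −1.57 with raw library totals (chosen after seeing the data). No paired fit was run: the study calls the mice littermates, but no label says which mice share a litter, replicate numbers were given in accession order, and the titles of the 2 genotypes share only 1 animal number. Depth limits Slc23a1 and P4ha2, with at most 14 counts in any library, and the control level of Gulo and Plod2.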
